A study of Mus musculus with 12 samples.

Results

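A set of 10 genes of the axis formed by growth hormone and the insulin-like growth factors (IGFs) was followed in mouse kidney: Igf1, Igf1r, Igfbp3, Igfbp4, Igfbp5, Igfbp6, Igfbp7, Igfals, Ghr and Socs2. Every probe that the platform annotation assigns to 1 of these 10 symbols was taken, 25 of the 45281 probes on the Illumina array. The genes were chosen by name with the control and ethanol values of these same samples already known, so the differences between the groups are given as a description with no test of their own. The 12 samples are total RNA of kidney, all from the C57BL/6J strain, male, and taken on postnatal day 28, with no allele or transgene named in the labels. The 6 ethanol samples were exposed before birth, through mothers drinking 10% (v/v) ethanol freely between fertilization and gestation day 8.5, and the 6 control samples are those the titles call control. The labels repeat the ethanol protocol on every sample, controls included, so the groups rest on the titles alone. The labels do not say separately what the control mothers drank, which litter a sample came from, or whether each sample is a separate animal. The errors below therefore measure the spread between these samples. In whole kidney RNA, fewer cells of a type and less RNA per cell cannot be told apart.

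Growth hormone from the pituitary acts through its receptor, encoded by Ghr, which signals through JAK2 and STAT5. Among its targets are Igf1, the growth factor itself, Igfals, the acid labile subunit that holds IGF and IGFBP3 in a stable complex in plasma, and Socs2, which damps signalling from the receptor. The IGF binding proteins (Igfbp genes) carry IGFs and limit or prolong their access to the IGF1 receptor, encoded by Igf1r. The kidney both responds to this axis, in growth and filtration, and makes some of its components.

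The start regions of 3 of these genes are shown, chosen by how their values varied between kidneys. Igfbp3 and Igfals tended to vary in the same direction and Igf1 in the opposite one, as described below. None of these pairs passed adjustment for the number of pairs compared, and the sequences were not tested as a reason. Of the 10 genes, 9 were found in the RefSeq promoter table (build GRCm38.p6), in 12 windows of 300 bases that run from 250 bases before a transcript's start to 50 after it, and Socs2 is named only. Capitals mark the motif TTCNNNGAA, the form of a STAT5 site, which reads the same on both strands.
Igfals, chr17:24877594-24877893, plus strand: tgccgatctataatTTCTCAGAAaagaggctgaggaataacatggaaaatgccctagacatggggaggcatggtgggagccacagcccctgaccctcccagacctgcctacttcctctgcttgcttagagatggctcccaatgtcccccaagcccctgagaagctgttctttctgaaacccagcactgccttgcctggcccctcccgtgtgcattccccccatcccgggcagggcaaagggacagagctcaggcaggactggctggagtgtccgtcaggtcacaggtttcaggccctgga
Igfals, chr17:24877981-24878280, plus strand: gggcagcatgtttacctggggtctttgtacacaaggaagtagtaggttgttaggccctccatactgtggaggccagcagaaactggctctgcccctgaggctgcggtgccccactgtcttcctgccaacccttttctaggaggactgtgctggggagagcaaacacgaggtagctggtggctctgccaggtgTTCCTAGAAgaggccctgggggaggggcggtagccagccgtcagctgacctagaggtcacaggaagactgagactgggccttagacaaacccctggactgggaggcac
Igfbp3, chr11:7213874-7214173, minus strand: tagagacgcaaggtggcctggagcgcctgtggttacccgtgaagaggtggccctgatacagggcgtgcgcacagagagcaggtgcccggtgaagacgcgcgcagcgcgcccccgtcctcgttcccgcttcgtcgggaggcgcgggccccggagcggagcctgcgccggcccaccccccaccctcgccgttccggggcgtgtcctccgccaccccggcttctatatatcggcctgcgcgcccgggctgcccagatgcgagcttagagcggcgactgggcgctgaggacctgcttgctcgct
Igf1, chr10:87860861-87861160, plus strand: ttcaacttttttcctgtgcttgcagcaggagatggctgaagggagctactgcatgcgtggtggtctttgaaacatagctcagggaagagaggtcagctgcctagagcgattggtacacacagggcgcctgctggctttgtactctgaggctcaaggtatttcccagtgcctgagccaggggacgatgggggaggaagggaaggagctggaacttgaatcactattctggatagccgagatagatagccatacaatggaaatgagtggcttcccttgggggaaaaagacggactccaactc
The motif was found in 2 of the 12 windows, both of Igfals, starting 236 and 58 bases before the start, and in 8.30% of all 32851 windows of that table. A further Igfals window, chr17:24878497-24878796, held no match and is not shown. A match of these letters is not evidence of binding. The Igfbp3 window held 37 CpG dinucleotides and the Igf1 window 6, beside a median of 7 over all windows.

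Values are log2 of background-corrected, quantile-normalized probe intensity, and a probe's level says nothing about its level relative to another probe. A probe was tested where it stood above background on at least 6 of the 12 arrays. This kept 20 of the 25 probes and at least 1 probe for each of the 10 genes, 23963 of 45281 probes on the whole array. The probes set aside were 4 of 5 for Igfbp7 and 1 of 2 for Socs2. In the comparison of ethanol with control by limma with Benjamini-Hochberg adjustment over all tested probes, 0 probes of the whole array passed an adjusted p of 0.05 (0%), and so 0 of the 20 did. The smallest adjusted p was 0.31 over all probes and 0.379 among the 20. At an unadjusted p under 0.05 stood 12.1% of all tested probes, 6.81% with a lower and 5.32% with a higher mean in ethanol, and 6 of the 20, of which 5 were lower and 1 was higher. Since these genes were picked with the contrast known, nothing is read from that count. The mean was lower in ethanol for 11 of the 20 probes, beside 48.1% of all, and the median difference was -0.04 beside 0.01 over all probes. No probe of the 10 genes had groups that did not overlap, which 0.484% of all probes did.

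**Figure D1:**
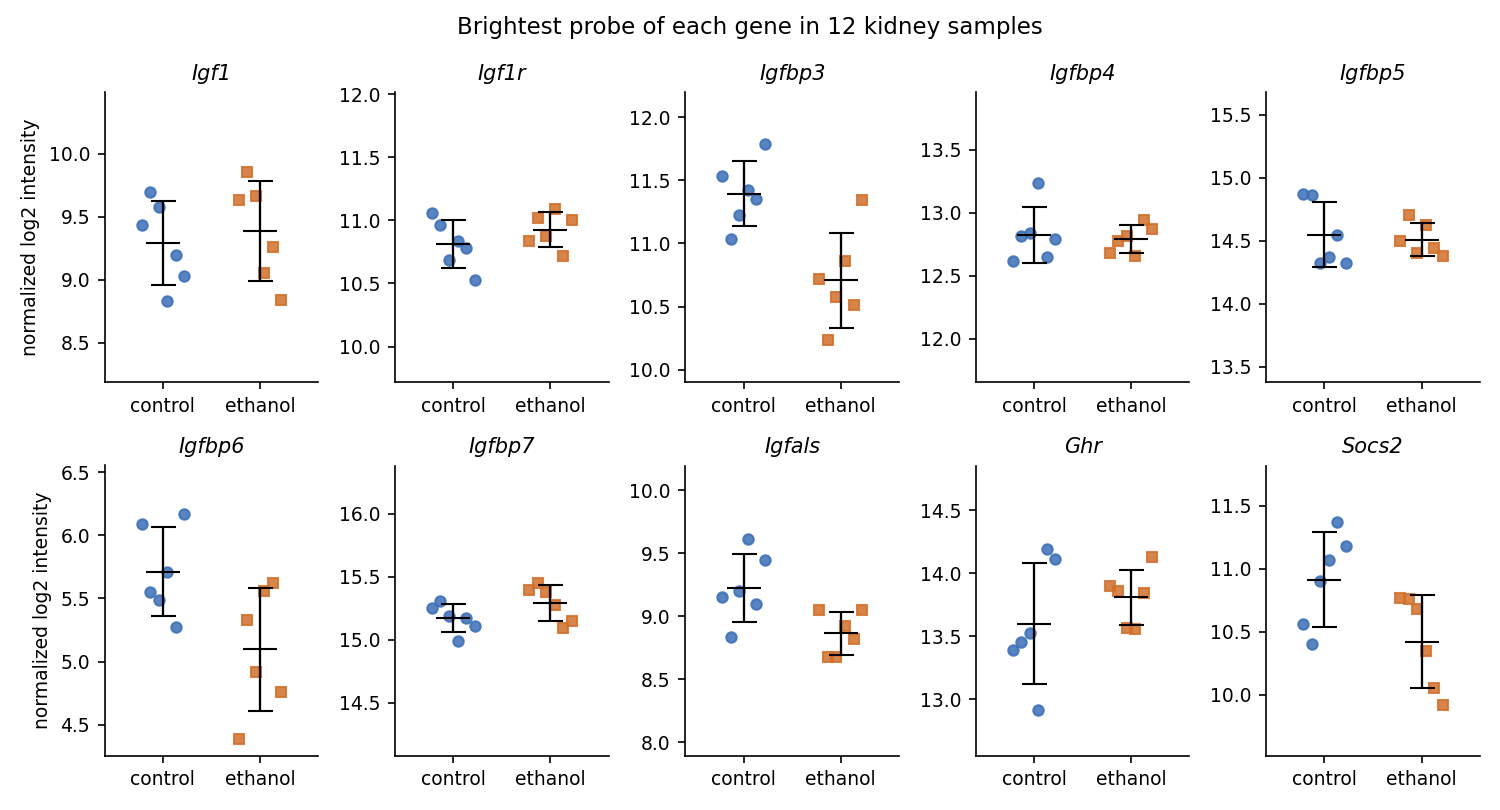
Normalized log2 intensity (vertical axis, each panel spanning the same width of 2.3 units around its own mean) of the brightest tested probe of each of the 10 genes in 6 control samples (blue circles) and 6 ethanol samples (orange squares), in replicate order, with the mean and SD in black. For Igfbp3, 5 of 6 ethanol samples lie below the lowest control, while the groups of Igf1, Igfbp4 and Igfbp5 lie side by side.

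With the background correction used here, the largest differences among the binding proteins were at Igfbp3, whose product is the main carrier of IGF in plasma. Its brighter probe, ILMN_1219335, read 11.04 at the lowest, 11.39 at the median and 11.79 at the highest in control, and 10.23, 10.65 and 11.35 in ethanol. All ethanol samples but replicate 6 lay below the lowest control, and that replicate lay close to the control median. The mean difference was -0.69 ± 0.17 (SE, n = 6 and 6), which is 1.61-fold higher in control on the normalized scale. The second probe, ILMN_2727503, ran from 7.89 through 8.57 to 9.07 in control and from 6.82 through 7.46 to 8.62 in ethanol. It differed by -1.01 ± 0.29, 2.01-fold higher in control, with 4 of 6 ethanol samples below the lowest control and replicate 6 again the highest of the exposed kidneys. Both probes were lower in ethanol under every setting run, and leaving out 1 sample moved the brighter probe between -0.82 and -0.59. With the first principal component of all probes (PC1, 32.6% of the variance) as a covariate, the differences were -0.43 ± 0.15 and -0.54 ± 0.22. PC1 was computed from these same values, and its mean was -14.4 in control and 14.4 in ethanol. A fit with PC1 as a covariate, here and below, can therefore also take out part of the group difference itself. PC1 ran from -62.5 to 23.4 in control and from -24.9 to 45.6 in ethanol, with control 4 lowest and ethanol 2 and 3 highest. Its part in the Igfbp3 difference was not tested further. Without those 3 samples the differences were -0.53 and -0.65.

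Igfbp6, which binds IGF2 in preference to IGF1, was read by 1 probe close to background. Probe ILMN_2689790 ran from 5.27 through 5.63 to 6.17 in control and from 4.39 through 5.12 to 5.63 in ethanol, and 3 of 6 ethanol samples lay below the lowest control. The mean difference was -0.62 ± 0.22. The probe stood above background in 6 of 6 control and 3 of 6 ethanol samples, and the value moved to -1.56 with no background correction.

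The other binding proteins differed little between the groups, each probe by less than 0.25. Igfbp4, an inhibitor of IGF action that is released from IGF by the protease PAPP-A, was read by probes ILMN_1258988 and ILMN_2694955. The first ran from 12.62 to 13.23 in control and 12.66 to 12.94 in ethanol and differed by -0.03 ± 0.12. The second differed by -0.23 ± 0.21, with control 4 at 13.48 and ethanol 6 at 13.37 the highest of their groups. It turned to 0.18 ± 0.12 with PC1 as a covariate. Igfbp5, the binding protein that also attaches to matrix, was read by 3 probes, which gave -0.04 ± 0.13 (ILMN_1254358), 0.24 ± 0.14 (ILMN_2682613) and 0.00 ± 0.14 (ILMN_2964324). In control samples 1 and 2 the first of them stood at 14.87, and in the other 4 controls between 14.32 and 14.54. Igfbp7, a secreted protein of vessels and tubules that binds IGFs weakly, was measured by the single tested probe ILMN_2764588. It ran from 14.99 through 15.18 to 15.31 in control and from 15.09 through 15.33 to 15.45 in ethanol, and 3 of 6 ethanol samples lay above the highest control. The mean difference was 0.12 ± 0.10, and with PC1 as a covariate 0.01 ± 0.10.

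Igfals and Socs2, both targets of growth hormone signalling in liver, had lower means in ethanol. The Igfals probe ILMN_1222609 ran from 8.84 through 9.18 to 9.61 in control and from 8.68 through 8.87 to 9.05 in ethanol, with 3 of 6 ethanol samples below the lowest control. The mean difference was -0.36 ± 0.13, and it lay between -0.44 and -0.28 when 1 sample was left out. With PC1 as a covariate the Igfals difference was -0.13 ± 0.09, and without control 4, ethanol 2 and ethanol 3 it was -0.18 ± 0.13. The tested Socs2 probe, ILMN_2628178, ran from 10.40 through 10.98 to 11.37 in control and from 9.92 through 10.52 to 10.76 in ethanol. The mean difference was -0.49 ± 0.20, and with PC1 as a covariate -0.52 ± 0.23. Ethanol samples 4 to 6 were the 3 below the lowest control, at 10.35, 10.05 and 9.92, and the others lay inside the control range. Controls 4 to 6 were the highest of their group, at 11.07, 11.37 and 11.18. Samples 1 to 3 read 10.56, 10.40 and 10.90 in control and 10.76, 10.76 and 10.68 in ethanol. The lower mean in ethanol thus lay in samples 4 to 6.

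Igf1 itself did not stand apart. Its brighter probe, ILMN_2769884, ran from 8.83 through 9.31 to 9.70 in control and from 8.84 through 9.45 to 9.85 in ethanol, and the groups overlapped over nearly their whole range. The difference was 0.09 ± 0.19, and for the second probe, ILMN_1225565, it was 0.09 ± 0.17. With PC1 as a covariate these turned to -0.25 ± 0.13 and -0.03 ± 0.19. The SE exceeded the difference for both probes, so a difference of this size was not detectable with these arrays.

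The receptors gave different values from different probes. For Ghr, probe ILMN_1253504 ran from 12.92 through 13.49 to 14.19 in control and from 13.56 through 13.85 to 14.13 in ethanol, a difference of 0.21 ± 0.20. Probe ILMN_3138922, which the annotation assigns to another Ghr transcript, differed by -0.09 ± 0.24. The dim probe ILMN_1247348, assigned to a cDNA clone, ran from 5.87 through 6.97 to 7.69 in control and from 7.28 through 7.63 to 9.28 in ethanol, a difference of 0.92 ± 0.34. Every ethanol sample lay above the control mean, ethanol 6 was the highest at 9.28, and without it the difference was 0.64. With PC1 as a covariate it was 1.29 ± 0.36. For Igf1r, the tyrosine kinase receptor that IGFs activate, the brightest probe ILMN_1249824 ran from 10.53 through 10.81 to 11.06 in control and from 10.72 through 10.94 to 11.09 in ethanol, a difference of 0.11 ± 0.11. Its 3 other probes differed by -0.48 ± 0.32 (ILMN_1239663), 0.02 ± 0.15 (ILMN_2482214) and -0.21 ± 0.13 (ILMN_1232222), the last above background in 2 of 6 ethanol samples. With PC1 as a covariate the value of ILMN_1239663 turned to 0.17 ± 0.16 and that of ILMN_1232222 was -0.32 ± 0.14.

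**Figure D2:**
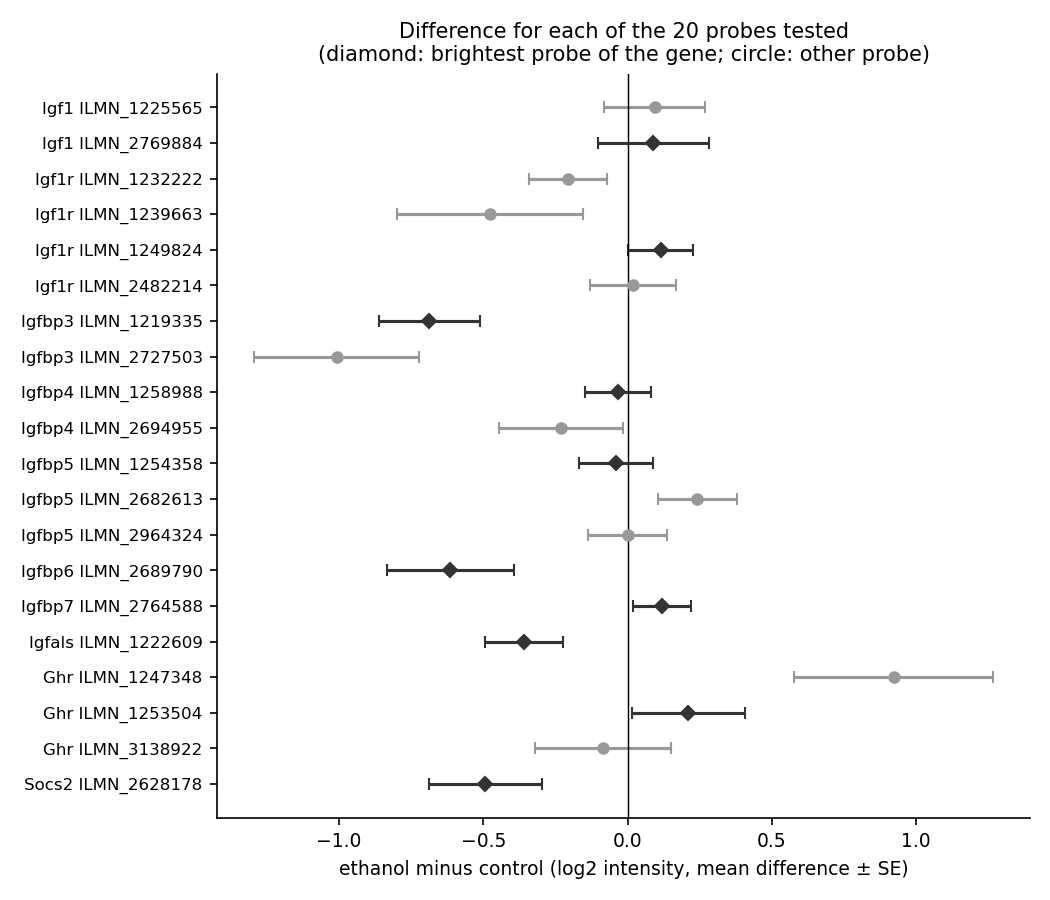
Ethanol minus control (horizontal axis, log2 intensity, mean difference with its SE from limma, n = 6 and 6) for each of the 20 tested probes, named by gene and probe, with a diamond for the brightest probe of a gene and a circle for others. Both Igfbp3 probes lie at -0.69 and -1.01, whereas the probes of Igf1r and Ghr lie on both sides of 0.

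Probes of 1 gene were also compared in how they varied between kidneys, after removing each group's mean, so that the comparison does not use the contrast. Among 15 probe pairs of the 6 genes with several tested probes, the median Pearson r over 12 samples was 0.53, 9 pairs had r above 0.5, and 7 had differences of the same sign. The pair of Igfbp3 probes had r = 0.91 and the 3 pairs of Igfbp5 probes 0.81 to 0.89. These sets of probes ranked the kidneys in much the same way. The Igf1 pair had r = 0.62 and the Igfbp4 pair 0.55. For Ghr the pairs had r of 0.53, -0.13 and 0.09, with the lower 2 involving the dim probe ILMN_1247348, and for Igf1r they ran from -0.35 to 0.64. A value for Ghr or Igf1r therefore depends on the probe read.

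**Figure D3:**
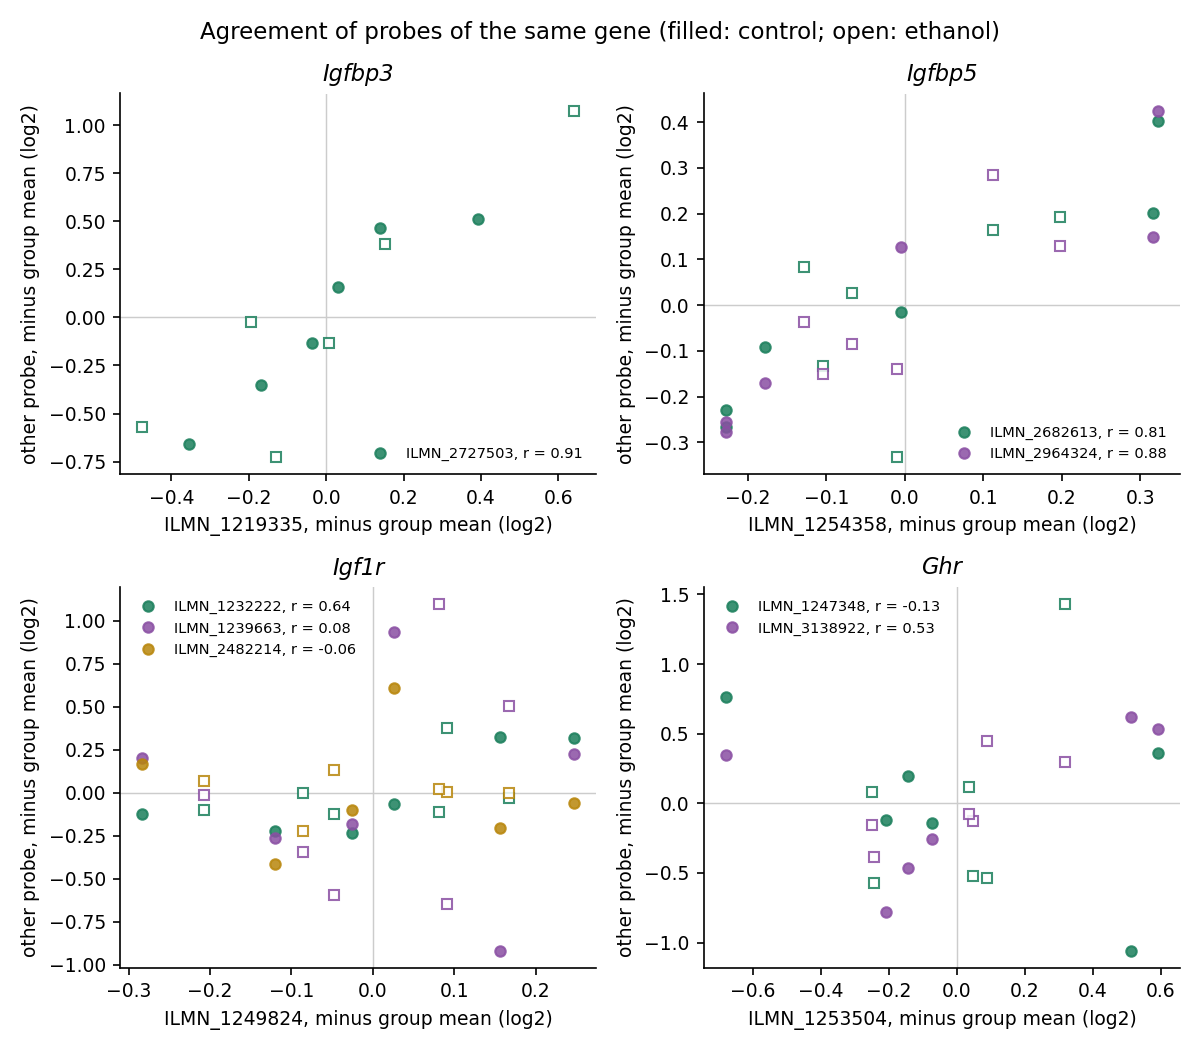
Deviation from the group mean (log2) of the brightest probe (horizontal axis) against each other tested probe of the same gene (vertical axis, 1 colour per probe) for Igfbp3, Igfbp5, Igf1r and Ghr, with filled circles for the 6 control and open squares for the 6 ethanol samples. The points of Igfbp3 (r = 0.91) and Igfbp5 (0.81 and 0.88) follow a line, while those of the Ghr probe ILMN_1247348 (r = -0.13) do not.

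The 10 genes were then set against each other, each by its brightest tested probe, over the 12 group-centred values, with an exact permutation of the samples within groups (518400 orders, two-sided). Of 45 pairs, 0 passed after Benjamini-Hochberg adjustment over the pairs, and 8 had an unadjusted p under 0.05. The closest pair was Igf1 with Igfbp7, at r = 0.86 and rho = 0.88 (exact permutation p = 0.00152 and 0.00129, adjusted 0.0683 and 0.0582). Its r was 0.93 in control and 0.82 in ethanol, and 0.78 without the 2 samples farthest from the median of Igf1. Both genes were high in control 1 to 3 and ethanol 1 to 3 relative to the rest of their group.

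Igf1 and the carrier genes of the plasma complex lay in opposition. Igf1 had r = -0.77 with Igfbp3 (exact permutation, adjusted p = 0.110) and -0.73 with Igfals (adjusted 0.112), while Igfbp3 and Igfals had r = 0.66 with each other (adjusted 0.112). In each of these 3 pairs the sign was the same in control and in ethanol alone, with r of -0.66 and -0.84 for Igf1 with Igfbp3. Igf1r, by its probe ILMN_1249824 alone, followed Igfbp5 at r = 0.77 (adjusted 0.112). Igfbp7 had r = -0.64 with Igfals, -0.63 with Igfbp4 and 0.62 with Igfbp5 (adjusted 0.134 for each), and the relation with Igfbp4 was weaker by rank, at rho = -0.43. Negative r was found in 28 of the 45 pairs. Since no pair passed, the pattern is given as values.

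**Figure D4:**
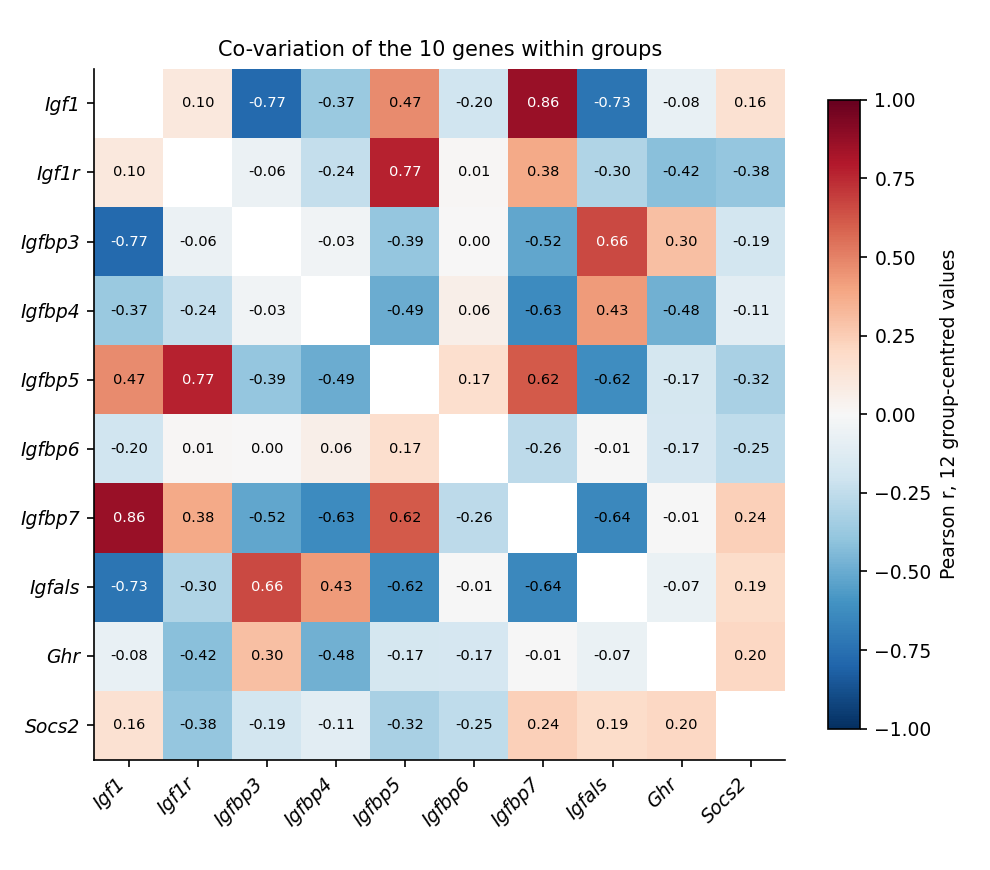
Pearson r of group-centred log2 values over 12 samples for each of the 45 pairs of the 10 genes, written in each cell and coloured from blue (-1) to red (1). Igf1 with Igfbp7 is the highest at 0.86, and Igf1 with Igfbp3 the lowest at -0.77.

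Marker lists of 13 cell types or states that a kidney sample can hold, and PC1, were set against each of the 10 genes in the same way, 140 relations in all, of which 5 passed the adjustment. The labelled tissue was borne out by its defining genes. Above the filter stood 11 of 11 proximal tubule markers, and 8 of 9 for the thick ascending limb and distal tubule. Of 8 liver markers 3 were above it and Alb was not. The mean of these 3 was 12.3 in ethanol 6, against 9.70 to 10.1 in the other ethanol samples. In control 4 it was 11.1, against 9.33 to 10.6 in the other controls. Over group-centred values it had r = -0.72 with PC1, and no relation of a member with it passed the adjustment. The part of liver signal in the values of these genes was not tested. Igfals had r = 0.89 with the mean of the proximal tubule markers (exact permutation, adjusted p = 0.0226), Igfbp3 had r = 0.82 (adjusted 0.0491) and Igf1 had r = -0.87 (adjusted 0.0491). By rank the values were 0.84, 0.86 and -0.87 (adjusted 0.0479 for each). Without the 2 samples farthest from the median of the gene they were 0.86, 0.79 and -0.81.

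The same kidneys that were high in proximal tubule markers were thus high in Igfbp3 and Igfals and low in Igf1. The markers did not act as a block. Igfbp3 had a positive r with 7 of the 11, highest with Slc5a2 (0.88) and Slc13a3 (0.87), the sodium-glucose and sodium-dicarboxylate transporters, and a negative one with Aqp1 (-0.72), a water channel of the same segment. Igfals was positive with 7 of 11 and Igf1 negative with 7 of 11. The summed level of the proximal tubule list overlapped between groups, at 17.3 to 17.5 in control and 17.4 to 17.5 in ethanol. Such values were not particular to this segment. Igfbp3 had r = 0.90 with Nphs1 (podocyte list) and 0.84 with Foxi1 (collecting duct list). Igf1 had r = -0.93 with Csf1r (immune list) and 0.92 with Slc7a12 (androgen responsive list). The means of those lists did not pass the adjustment with these genes.

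PC1 had r = -0.94 with Igfals (exact permutation, adjusted p = 0.00864) and 0.87 with Igf1 (adjusted 0.0198), and r = -0.92 with the proximal tubule mean itself. Igfbp3 had r = -0.76 and Igfbp7 0.77 with PC1 (adjusted 0.0784 for both). The relations with the marker mean and with PC1 are therefore not separate from each other. Over group-centred values, PC1 had r = 0.01 with the percent of probes above background on an array, -0.05 with the background mode and 0.63 with the array weight that limma estimates from these same values, which is lower for arrays that lie far from their group. The array weight had r = -0.62 with Igfals, -0.39 with Igfbp3, 0.38 with Igf1 and 0.23 with Igfbp7. The part of array quality in these relations was not tested. Without control 4, ethanol 2 and ethanol 3 together, 0 of the 140 relations passed, at r = 0.83 for Igfals, 0.85 for Igfbp3 and -0.73 for Igf1 with the proximal tubule mean. The count was 1 without control 2 or without ethanol 6 and 8 without ethanol 5.

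**Figure D5:**
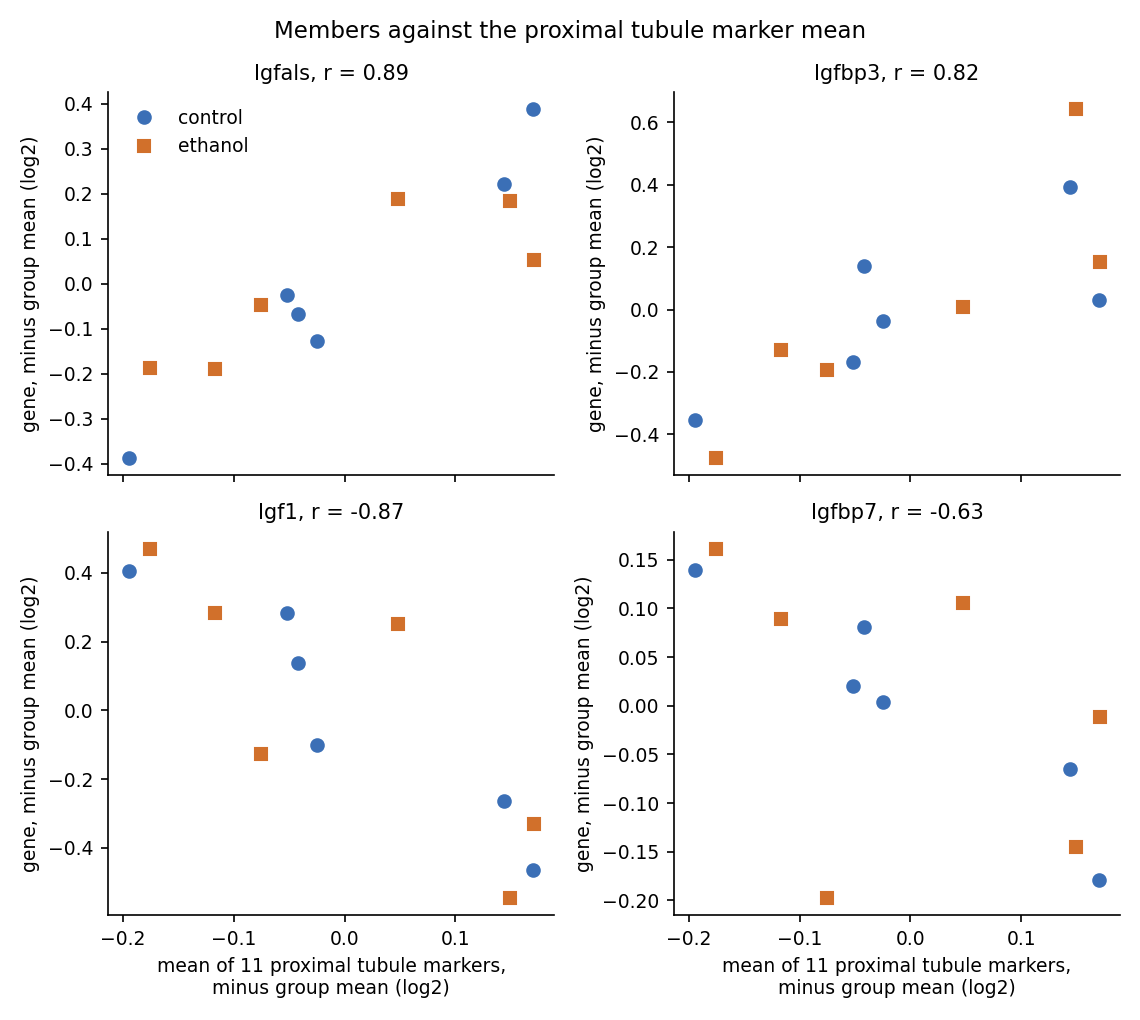
Deviation from the group mean (log2) of the mean of 11 proximal tubule markers (horizontal axis) against that of Igfals, Igfbp3, Igf1 and Igfbp7 (vertical axes) in 6 control (blue circles) and 6 ethanol samples (orange squares). Igfals (r = 0.89) and Igfbp3 (0.82) slope upward and Igf1 (-0.87) downward, and Igfbp7 (-0.63, adjusted p = 0.302) lies farthest from a line.

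Igfbp5 and Igf1r had their highest list values with stromal or vessel markers, none of which passed the adjustment. Igfbp5 had r = 0.88 with the mean of 13 interstitial fibroblast and matrix markers (exact permutation, adjusted p = 0.0784). It was positive with 12 of the 13 and stood closest to Pdgfra (0.88), Dcn (0.81) and Lum (0.71). Its r with that mean was 0.97 in control and 0.60 in ethanol. With the mean of 17 endothelial markers its r was 0.57 (adjusted 0.404), at 0.74 in control and -0.07 in ethanol, and 0.23 without the 2 samples farthest from the median. It was positive with 14 of the 17, and Sox17 (0.91), a transcription factor of arterial endothelium, was the highest of them. Igf1r had r = 0.81 with the fibroblast mean and 0.81 with the endothelial mean (adjusted 0.0784 for both). It was positive with 13 of 13 and 16 of 17 of their markers. All list values of Igf1r here are those of probe ILMN_1249824. That probe had r = 0.08 with ILMN_1239663, -0.06 with ILMN_2482214 and 0.64 with ILMN_1232222, so they need not hold for the gene. With the fibroblast mean, its r was 0.87 in control and 0.66 in ethanol. The r of Igf1r with the endothelial mean was 0.95 in control and 0.48 in ethanol, a difference that was not tested, and 0.58 without the 2 farthest samples. Socs2 was negative with 12 of 13 fibroblast markers, lowest with Sparc (-0.83), and with 16 of 17 endothelial markers. Its r with the means of the lists was -0.54 and -0.56 (adjusted 0.361 and 0.344). With the fibroblast mean it was -0.81 in control and -0.15 in ethanol, and with the endothelial mean -0.73 and -0.31. The strongest list value of Socs2 was with fat, at r = -0.66 (exact permutation, adjusted p = 0.251), or -0.86 in control and -0.48 in ethanol. Socs2 was negative with 7 of 7 fat markers, among them Cidea (-0.68) and Lep (-0.68). The fat mean had r = 0.67 with Igf1r (adjusted 0.224) and 0.62 with Igfbp5 (adjusted 0.302), each positive with 7 of 7 markers. In control and in ethanol alone these were 0.96 and 0.33 for Igf1r, and 0.85 and 0.31 for Igfbp5. The mean of 7 smooth muscle and renin cell markers had r = 0.78 with Igf1r (adjusted 0.0784) and 0.78 with Igfbp5 (adjusted 0.192). With Socs2 it had r = -0.59 (adjusted 0.316). In control and in ethanol alone these were 0.84 and 0.66 for Igf1r, 0.93 and 0.12 for Igfbp5, and -0.77 and -0.31 for Socs2. The differences between the groups in r were not tested. The summed level of the fat markers ran from 8.64 to 11.8 in control and from 8.43 to 12.5 in ethanol, a wide range within each group, and its part in the values of these genes was not tested. None of the relations of Igfbp5, Igf1r and Socs2 passed the adjustment. Ghr, by its probe ILMN_1253504, had its strongest list value with the mean of 4 red cell markers, at r = -0.72 (adjusted 0.176). This was -0.96 in control, -0.24 in ethanol and -0.53 without the 2 samples farthest from the median of Ghr. The mean of 7 androgen responsive markers ran from 10.9 to 11.3 in control 1 to 3 and from 12.5 to 12.9 in control 4 to 6. It had r = 0.58 with Ghr (adjusted 0.396), which was positive with 7 of 7 of these markers, and -0.57 with Igf1 (adjusted 0.316). The part of this list in the values of these genes was not tested. Fibroblast and matrix markers were lower in mean in ethanol for 9 of 13 and endothelial ones for 11 of 17, with medians of -0.10 and -0.08 beside 0.01 over all probes. Immune markers were lower for 11 of 12, with a median of -0.34 and summed levels of 12.5 to 12.8 in control and 12.2 to 12.9 in ethanol, and their part in the differences above was not tested.

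The genes whose group-centred values were most like those of 5 members were taken from the 12607 genes with a tested probe, over 12 samples, as a description. For Igfbp3 they were Blmh (0.93), Plekha7 (0.93), Inpp5a (0.93) and Larp1b (0.92), and for Igfbp5 they were Txnip (0.93), Garre1 (0.93), Zmynd8 (0.91) and Sox17 (0.91). For Igf1 they were Bnip3l (0.96), Jazf1 (0.95), Jam2 (0.95) and Ccdc77 (0.94), and for Igfbp7 Extl2 (0.96), Chchd5 (0.96), Zc3h6 (0.95) and Flrt3 (0.94). Socs2 stood closest to Pmpcb (0.91), Dnajc12 (0.90), Lmbr1 (0.89) and Txnrd1 (0.87). The number of genes with r above 0.8 or below -0.8 was 749 for Igf1, 401 for Igfbp3, 329 for Igfbp7, 139 for Igfbp5 and 34 for Socs2. No such count is given for the other genes of the array, so none of these is read as high or low. Over group-centred values, r with PC1 was 0.87 for Igf1, -0.76 for Igfbp3, 0.77 for Igfbp7, 0.56 for Igfbp5 and 0.06 for Socs2. The part of PC1 in these counts was not tested.

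Of 40 other genes of the axis, 38 were on the array and 31 were tested, and 0 passed the adjustment over all probes. The mean was lower in ethanol for 14 and higher for 17, beside 48.1% of all tested probes lower. The median difference was 0.03, beside 0.01 over all probes. At an unadjusted p under 0.05 by limma stood 2 lower and 2 higher, beside 6.81% and 5.32% of all tested probes. Nothing is read from that count. The 8 with the smallest unadjusted p are given as a description. Igf2bp3, an RNA-binding protein that binds Igf2 mRNA, differed by 0.42 ± 0.15, and 1 of its 2 other tested probes had the opposite sign. Ptpn6, a phosphatase that switches off JAK2 signalling, differed by -0.31 ± 0.12, with 8.24 to 8.82 in control and 8.01 to 8.34 in ethanol. Irs2, an adaptor below the insulin and IGF1 receptors, differed by -0.57 ± 0.26 and the insulin receptor gene Insr by 0.34 ± 0.16. Grb10, an adaptor that restrains both receptors, differed by 0.21 ± 0.10. Stat5a, which carries the growth hormone signal to the nucleus, differed by -0.37 ± 0.19, and the FOXO factors held back by IGF signalling differed by 0.41 ± 0.24 (Foxo3) and 0.20 ± 0.12 (Foxo1). The ranges of control and ethanol samples overlapped for each of these 8 genes. Gh, Ghrh, Ghrhr, Ghsr, Stat5b, Socs1, Pappa2, Igf2bp2 and Igfbpl1 gave no tested probe.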

How the data were processed

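Kidney RNA of 12 samples, 6 control and 6 ethanol by their titles, was hybridised as biotinylated cRNA to Illumina arrays, per the labels. The deposited values are background-subtracted probe intensity on a linear scale, made by the authors with GenomeStudio per the submitters' processing notes, while no source used here gives its version, background method or scaling. Between 8.16% and 33.3% of an array's values lay below 0. In limma 3.58.1 (R 4.3.3), each array's background was taken from the mode of its values (kernel bandwidth 2, below the 0.6 quantile), followed by normexp with offset 16, quantile normalization and log2, so that differences of dim probes are understated. A probe was tested where its normal probability under background was below 0.05 on at least 6 of 12 arrays. Differences came from lmFit and eBayes on all 12 arrays, with Benjamini-Hochberg adjustment over all tested probes. The fit was tested on simulated data. Arrays correlated at 0.952 to 0.992, and their number limits the precision.

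A second table was not used, since its 24 value columns match no sample's label, so its detection p-values were not available for the background. Genes were named only from the 34885 probes with a single symbol in the platform annotation, leaving out 18 probes with several symbols and 10378 without. Correlations used values centred on the group mean and exact permutation within groups in Python 3.11.15 and numpy 2.4.6. Members, pathway genes and marker lists were chosen with earlier results of these data known. All members are named, with the 8 pathway genes of smallest unadjusted p, the 4 genes most like each of Igfbp3, Igfbp5, Igfbp7, Igf1 and Socs2 (predicted and clone names left out), and up to 3 markers of a list with the highest absolute r to a member. Alternatives in background, scaling, offset, filter, variance prior, array weights and probe choice, and leaving out each sample, are given at the end, and 2 were added after seeing the data, PC1 as a covariate and leaving out 3 samples.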

Additional observations from a re-analysis of the deposited data

Results flagged for a closer look

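In 3 of 40 groups of 6 samples (20 probes in each group), the sample at 1 end lay apart from the others by Dixon's gap ratio, which chance gives in about 1 of 20 groups. For Ghr ILMN_1247348, ethanol 6 was highest at 9.28, the next ethanol sample stood at 7.97, and the gap was 0.655 of the range. For Igf1r ILMN_1232222, ethanol 2 was highest at 5.41 against 5.04, with a gap ratio of 0.757. For Igfbp4 ILMN_1258988, control 4 was highest at 13.23 against 12.84, with a gap ratio of 0.646. Control 4 was also the lowest sample on PC1 and had the lowest array weight, 0.265.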

How the results depend on the processing

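Of 468 recomputed differences of the members, 465 lay within 1 SD of the reported value, and the others were Igfbp6 (-1.56) and Igf1r ILMN_1232222 (-0.45) with no background correction and Igf1r as the mean of its probes (-0.14). Both Igfbp3 probes, Igfals, Igfbp6, Igfbp7 and the tested Socs2 probe kept their sign in all settings run for them. So did Ghr ILMN_1247348, Ghr ILMN_1253504 and Igfbp5 ILMN_2682613, all higher in ethanol, and Igf1r ILMN_1232222, which was lower. Every other tested probe changed sign in at least 1 setting. Igfbp5 ILMN_2964324 did so in 9, and Ghr ILMN_3138922, Igf1 ILMN_2769884, Igf1r ILMN_2482214 and Igfbp4 ILMN_1258988 in 4 each. A value within 1 SD can thus differ in sign, as for Igf1r ILMN_1239663, at -0.48 and, with PC1 as a covariate, 0.17. Above background on 12 of 12 arrays, Igfbp6 and Igf1r ILMN_1232222 dropped out of the test. The count of all probes past an adjusted p of 0.05 was 1 with the deposited values and no scaling, and 0 in each fit that left out 1 sample, where the count at an unadjusted p under 0.05 ran from 1804 without ethanol 2 to 3778 without control 2. The labels do not say that equal replicate numbers pair samples, and the deviations of same-numbered samples correlated above 0.1 for 1 of 6 numbers. With replicate numbers as a block, 0 probes passed (3553 unadjusted, smallest adjusted p 0.0693), and Igfbp3 had an adjusted p of 0.0948. Of the members' probes, 10 to 13 were lower in ethanol when 1 sample was left out, and Igfbp3 ranged from -0.82 to -0.59. The count of pairs of members past the adjustment was 1 with median scaling, with no scaling and with the mean of a gene's probes, and 0 to 1 without 1 sample. Relations with lists and PC1 past the adjustment numbered 1 to 8 without 1 sample and 0 without control 4, ethanol 2 and ethanol 3, a setting chosen after seeing the data. Of 95 recomputed correlations for the 5 relations that passed, 37 no longer passed and 0 changed sign. The cause of these changes was not tested, and leaving samples out also lowers their number.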
